A study of Mus musculus with 2 samples.

Results

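Ribosomal protein genes encode the protein parts of the ribosome, the machine that translates messenger RNA in every cell. p300 is a histone acetyltransferase that is recruited by transcription factors, and a p300 peak far from a promoter is a widely used sign of an active enhancer. Because ribosomal protein genes are active in all tissues and are mainly driven from their promoters, a list of 41 of them was set beside the p300 map as a housekeeping contrast. The list was given by name, and it held 26 genes of the large subunit (Rpl, including Rplp) and 15 of the small subunit (Rps). All 41 were found once each among the 22367 protein-coding genes of the annotation, on 18 chromosomes.

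The p300 map came from Swiss Webster mouse embryos at embryonic day 14.5 and from the dorsal cerebral wall, a dissected tissue that holds the developing neocortex with its progenitor zones and its newborn neurons together. Hippocampus, cortical hem and choroid plexus had been cut away. There was 1 p300 ChIP library, made with the C-20 antibody, and 1 input library from the same chromatin, without a replicate, so no comparison of samples was possible and every p-value below compares peaks with random placement. The list holds 6629 peaks as intervals, with no height, and the number of reads behind a peak is not known from it. Peaks at exons and within 2.5 kb of a start site had been taken out, so p300 at the promoters of ribosomal protein genes cannot be read from these data, and neither can their expression.

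A peak was counted for a gene when its midpoint lay within 100 kb of the transcription start site, taken from each gene's transcript with the longest open reading frame. By this rule 16 of the 41 ribosomal protein genes, 39.0%, had at least 1 p300 peak, while 24.2% of all protein-coding genes did. Together the 16 genes had 25 peaks, and as no windows of the list overlap all 25 were distinct, at 7.38 to 88.1 kb from the start sites. Random placement over the assembled genome would put 21.2 peaks in the same 8.20 Mb, so that the ratio of observed to expected was 1.18, with an exact Poisson 95% interval of 0.762 to 1.74 that covers counting error only and includes 1. The median was 0 peaks per gene, both in the list and over all protein-coding genes, and the mean was 0.610 in the list and 0.388 over all genes.

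**Figure D1:**
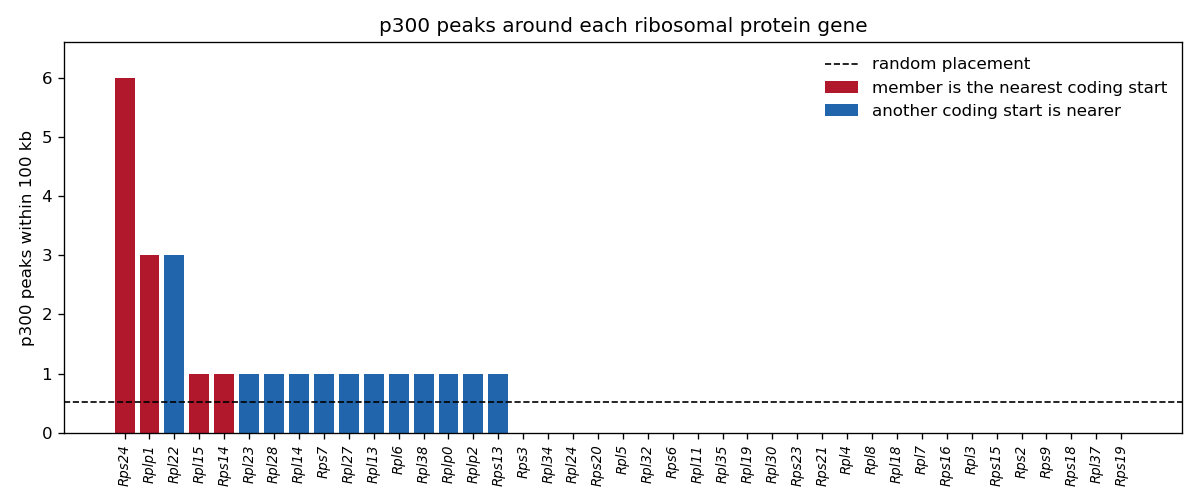
Number of p300 peaks (vertical axis) with a midpoint within 100 kb of the start site of each of the 41 ribosomal protein genes (horizontal axis), split by whether the gene's own start site is the nearest protein-coding one. The dashed line is the 0.518 peaks that random placement gives a window; Rps24 stands highest with 6 peaks and 25 genes have none.

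The peaks were unevenly shared. Rps24 had 6, Rplp1 and Rpl22 had 3 each, 13 genes had exactly 1, and 25 had none. Genes with 3 or more peaks made up 3.51% of all protein-coding genes, and 3 of the 41. Without Rps24 the list held 19 peaks against 20.7 expected, a ratio of 0.917 (exact Poisson 95% interval 0.552 to 1.43), and without Rps24 and Rplp1 it held 16 against 20.2, a ratio of 0.792. Leaving out these genes was decided after their counts were seen. A single gene, Rps24, moved the list from below to above the number given by random placement, with an interval that included 1 either way. Over all protein-coding genes, whose windows overlap, the ratio of distinct peaks to random placement was 0.952. Counted window by window, as fits a list without overlaps, the ratio over all genes was 0.752. Without Rps24 the mean of the list, 0.475 peaks per gene, was still above the 0.388 of all genes.

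The middle 200 bases of 6 peaks at Rps24, Rplp1 and Rpl15 are shown, chosen with their motifs in view from genes whose peaks have no other coding start nearer. They are the peaks of these genes that hold a motif described below, and the peak closest to Rps24, which holds none. They are read from mm9 on the plus strand, with capitals at any of 4 short motifs tied to factors of the developing cortex: the E-box forms CAGATG and CAGCTG bound by proneural proteins, the homeodomain core TAATTA and the Nfi site TTGGCA, each on either strand. Rps24 peaks 1877 (chr14:25319721-25319920), 1879 (chr14:25362178-25362377), 1880 (chr14:25370405-25370604) and 1882 (chr14:25397861-25398060) come first, then Rplp1 peak 6385 (chr9:61709884-61710083) and Rpl15 peak 1858 (chr14:19096101-19096300).
Rps24 peak 1877: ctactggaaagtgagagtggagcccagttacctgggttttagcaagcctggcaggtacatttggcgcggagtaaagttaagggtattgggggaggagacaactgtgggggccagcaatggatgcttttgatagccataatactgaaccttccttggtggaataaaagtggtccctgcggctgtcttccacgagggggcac
Rps24 peak 1879: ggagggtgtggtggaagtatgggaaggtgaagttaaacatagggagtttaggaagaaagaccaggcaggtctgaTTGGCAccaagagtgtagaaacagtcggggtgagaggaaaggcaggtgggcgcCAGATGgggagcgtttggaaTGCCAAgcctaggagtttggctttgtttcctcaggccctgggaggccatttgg
Rps24 peak 1880: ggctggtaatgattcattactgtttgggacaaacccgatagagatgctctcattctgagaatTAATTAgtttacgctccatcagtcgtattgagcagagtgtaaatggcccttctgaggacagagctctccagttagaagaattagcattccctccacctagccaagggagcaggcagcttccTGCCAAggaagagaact
Rps24 peak 1882: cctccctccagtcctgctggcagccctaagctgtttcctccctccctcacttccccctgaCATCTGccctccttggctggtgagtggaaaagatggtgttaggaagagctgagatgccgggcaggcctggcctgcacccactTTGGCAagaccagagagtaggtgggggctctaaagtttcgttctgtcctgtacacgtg
Rplp1 peak 6385: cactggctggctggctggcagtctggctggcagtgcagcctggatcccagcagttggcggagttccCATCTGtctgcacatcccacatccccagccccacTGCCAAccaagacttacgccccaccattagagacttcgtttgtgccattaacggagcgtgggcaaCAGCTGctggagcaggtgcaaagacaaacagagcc
Rpl15 peak 1858: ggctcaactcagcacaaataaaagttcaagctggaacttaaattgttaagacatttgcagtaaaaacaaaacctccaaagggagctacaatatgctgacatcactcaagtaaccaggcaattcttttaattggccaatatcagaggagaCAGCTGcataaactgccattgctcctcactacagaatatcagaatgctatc

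The first of these, the peak closest to Rps24, holds none of the 4 motifs in its middle, and neither do the peaks at Rps24 and Rplp1 that are not shown, so that 3 of 6 peaks at Rps24 and 1 of 3 at Rplp1 hold a motif. Peak 1879 has a CAGATG box between a pair of Nfi sites on opposite strands, peak 1880 has a TAATTA core and an Nfi site, and peak 1882 has a CATCTG box and an Nfi site. Rplp1 peak 6385 carries both E-box forms around a TGCCAA site, and Rpl15 peak 1858 a single CAGCTG. Over the 25 peaks, 12 (48.0%) held at least 1 of the motifs in their middle 200 bases, compared with 70.2% of all 6629 peaks. CAGATG was in 28.0% of the 25 and 36.4% of all peaks, CAGCTG in 16% and 23.5%, TAATTA in 8% and 17.6%, and TTGGCA in 20% and 23.9%. With 25 peaks these shares are a description and were not tested, and a match of letters is not evidence of binding.

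Rps24 encodes a protein of the small subunit and is one of the genes mutated in Diamond-Blackfan anaemia. The gene (ENSMUSG00000025290) spans bases 25309903 to 25315368 of mm9 chromosome 14 and is read from the plus strand. Its 6 peaks lay 9.92, 22.2, 52.4, 60.6, 74.6 and 88.1 kb downstream of its start, all in intergenic sequence, and its own start was the nearest coding one for all of them. Random placement gives a window of this size 0.518 peaks, so the fold was 11.6. In the one-sided exact binomial test the p of Rps24 was 1.73e-05, and 0.00551 after Benjamini-Hochberg adjustment across all protein-coding genes. Rps24 was the only one of the 41 genes called at an adjusted p under 0.05, and 0.747% of all protein-coding genes were called, each with at least 5 peaks. At an unadjusted p under 0.05 the list had 3 genes, Rps24, Rplp1 and Rpl22, and all genes 3.52%.

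The same 6 peaks were also counted for Polr3a, the gene of the largest RNA polymerase III subunit, whose start lies 3.63 kb from that of Rps24 and which had the same adjusted p of 0.00551 by the exact test. Downstream of Rps24, no other protein-coding gene starts for 968.8 kb, until Zmiz1, which encodes a transcriptional co-activator related to the PIAS proteins. This stretch, from 25309903 to 26278710, held 15 peaks where 2.38 would be expected, a fold of 6.32. Of the 15, 6 lay within 100 kb of Rps24, 2 within 100 kb of Zmiz1, and 10 were nearer to Rps24 than to Zmiz1. The 6 peaks nearest Rps24 were 880.8 to 958.9 kb from the Zmiz1 start. Zmiz1 was not on the list of developmental genes used below and was chosen after its position was seen. Which gene, if either, these peaks act on was not tested.

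**Figure D2:**
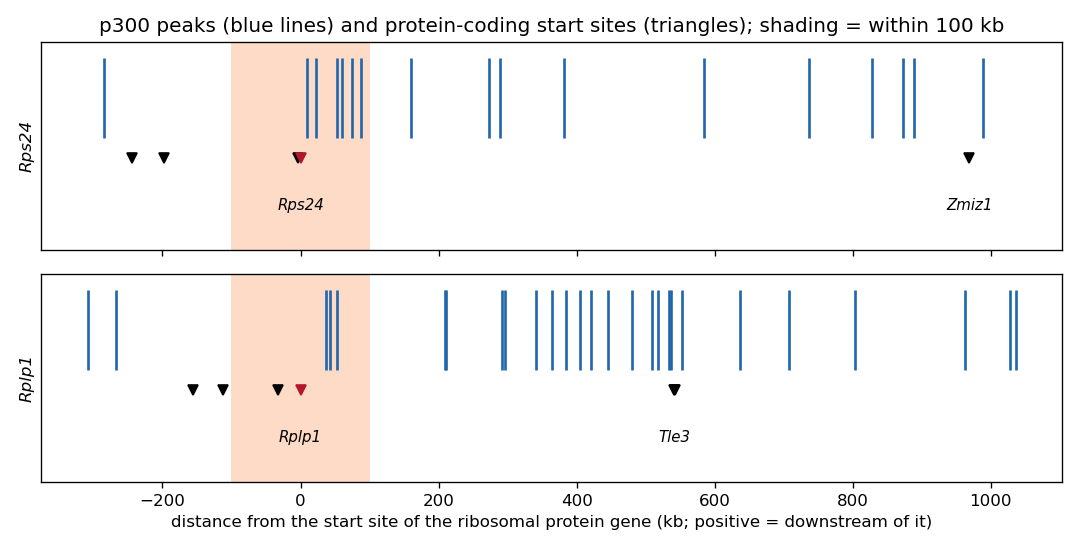
p300 peaks (blue lines) and start sites of protein-coding genes (triangles, red for the ribosomal protein gene) along the sequence around Rps24 and Rplp1, by distance in kb from its start with downstream to the right. The peaks counted within 100 kb (shaded) are the near end of a stretch of 968.8 kb with 15 peaks up to Zmiz1 and of one of 541.2 kb with 18 peaks up to Tle3.

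Rplp1 encodes one of the acidic proteins of the ribosomal stalk, which recruits elongation factors. Its gene (ENSMUSG00000007892) is read from the minus strand and takes bases 61761091 to 61762345 of chromosome 9. Its peaks lay 36.5, 42.0 and 52.4 kb downstream of its start, and Rplp1 was the nearest coding gene to each. With a fold of 5.79 the gene did not pass the test (adjusted p = 0.450, the same exact binomial test). The same 3 peaks, at 68.8 to 84.6 kb, were also counted for Kif23, whose start lies 32.3 kb from that of Rplp1. The peaks stood at one end of a stretch of 541.2 kb that ends at Tle3, a Groucho co-repressor that acts with Hes proteins and Tcf factors. The stretch held 18 peaks, 12.8 times the number that random placement gives. Of these, 6 were within 100 kb of Tle3 and 5 were nearer to Rplp1, and 2 of the 3 Rplp1 peaks were less than 500 kb from the Tle3 start. Tle3 itself had 8 peaks within 100 kb on both sides (adjusted p = 8.64e-05 by the exact test).

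Rpl22, a large-subunit protein with a known role in T cell development, lies on chromosome 4 from 151699851 to 151708180. It also had 3 peaks (fold 5.79, adjusted p = 0.450 by the exact test), but each had another coding start nearer. Those 68.5 and 57.9 kb upstream sat inside Acot7, which encodes an acyl-CoA thioesterase, and were nearest to the start of Gpr153. The nearer of them was 20.1 kb from Hes3, a bHLH repressor of the Notch pathway. The third, 79.5 kb downstream, lay inside Kcnab2 and was nearest, at 66.7 kb, to Chd5, a chromatin remodeller of neurons. Unlike the surroundings of Rps24 and Rplp1, which had 2 coding starts in their windows, those of Rpl22 had 6.

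Rpl15 and Rps14 each had 1 peak within 20 kb of the start, as Rps24 did. Among all protein-coding genes 5.11% had a peak that close, and in the list 7.32%. The Rpl15 peak (988 bp, chromosome 14 from 19095707 to 19096694) lay 7.38 kb downstream in intergenic sequence. It was 7.45 kb from the start of Nkiras1, which begins 0.069 kb from Rpl15, so the peak cannot be given to one rather than the other by distance. The Rps14 peak (1066 bp) lay 9.65 kb upstream, with Ndst1, a heparan sulphate sulphotransferase, 16.2 kb away. Rps14 is the small-subunit gene lost in the human 5q- syndrome. A single peak in the window was not enough to be called for any protein-coding gene (adjusted p = 1 for Rpl15 and Rps14, exact binomial test).

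**Figure D3:**
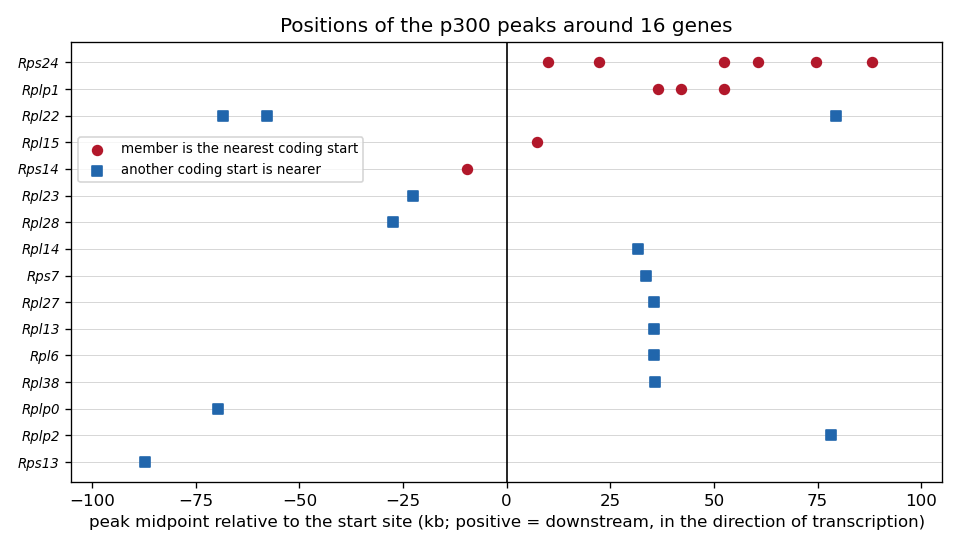
Position of each of the 25 p300 peaks relative to the start site of the ribosomal protein gene (kb, positive downstream in the direction of transcription) for the 16 genes with a peak. Red circles mark the 11 peaks nearest to the ribosomal protein gene, at 4 genes, and blue squares the 14 with another coding start nearer.

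The other 11 genes with a peak had 1 each, and in every case another coding gene was nearer. Of these 11 genes, 9 were of the large subunit (Rpl6, Rpl13, Rpl14, Rpl23, Rpl27, Rpl28, Rpl38, Rplp0 and Rplp2) and the others were Rps7 and Rps13. Upstream peaks lay 22.6 kb from Rpl23, 27.5 kb from Rpl28, 69.5 kb from Rplp0 and 87.2 kb from Rps13. Downstream peaks lay 31.7 kb from Rpl14, 33.6 kb from Rps7, 35.4 kb from Rpl27, 35.6 kb from Rpl6 and from Rpl13, 35.7 kb from Rpl38 and 78.2 kb from Rplp2. None of these peaks was within 20 kb of its ribosomal protein gene.

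Of the 25 peaks, 14 had another coding start nearer than that of the ribosomal protein gene, at 5.20 to 66.7 kb, and 11 had the ribosomal protein gene as the nearest. Those 11 belonged to Rps24, Rplp1, Rpl15 and Rps14 and made 44.0% of the peaks. Over the 8685 pairs of a protein-coding gene and a peak within 100 kb, the gene was the nearest in 42.6%, a share close to that of the list.

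Some of the nearer genes are known from cortical development. The Rpl27 peak (1336 bp, chromosome 11 from 101338514 to 101339849) was 9.69 kb from Rnd2, a small GTPase needed for the migration of cortical neurons, and 35.4 kb from Rpl27. The Rplp0 peak was the widest of the 25, at 1904 bp, and lay 5.20 kb from the mitochondrial sirtuin gene Sirt4 and 60.3 kb from Msi1, an RNA-binding protein of neural progenitors. Rnd2, Msi1, Hes3 and Chd5 were picked out after the peaks were seen. The others are of various kinds. The Rpl23 peak was inside Lasp1, which encodes an actin-binding protein, the Rplp2 peak inside Chid1, the Rps7 peak inside Colec11 and the Rps13 peak inside Pik3c2a. The Rpl38 peak was inside Ttyh2, 23.1 kb from the start of Dnaic2, and the Rpl28 peak inside Fam71e2.

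To say which counts come from a developmental neighbour, a list of 253 matched regulators of cortical development was used, with 500 kb as the limit. By this list 6 of the 25 peaks (24%) had such a gene in reach, at 5 ribosomal protein genes, and over all 6629 peaks the share was 21.6%. The pairs were Rplp1 with Tle3, Rps13 with Sox6 at 426.3 kb, Rpl27 with Etv4 at 307.5 kb, Rpl14 with Ctnnb1 at 330.2 kb and Rpl13 with Tubb3 at 273.5 kb. Sox6 is a SoxD factor, Etv4 responds to FGF signalling, Ctnnb1 encodes beta-catenin and Tubb3 a neuronal tubulin. A listed regulator was the nearest coding start of 0 of the 25 peaks. The same share over all 6629 peaks is not given here. As the list holds only 253 of the 22367 protein-coding genes, this 0 is not read as a result. Setting these 6 peaks aside left 19 peaks at 12 ribosomal protein genes. The 19 still include the remaining Rplp1 peak, which lay 504.6 kb from Tle3, just past the limit. They also include the peaks near Hes3, Chd5 and Msi1, genes that the list lacks, as it lacks Rnd2. The split therefore depends on the list and on the limit, and the 19 are not peaks free of a developmental neighbour.

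The 25 genes with no peak within 100 kb included Rpl5 and Rpl11, which hold the p53 inhibitor Mdm2 in check when ribosome assembly fails, with their nearest peaks 135.3 and 170.8 kb away. They also included Rps6, the substrate of S6 kinase, at 167.4 kb, and Rpl24, mutated in the Belly spot and tail mouse, at 120.8 kb. The nearest peak lay between 100 and 200 kb from 9 of the 25 genes, between 200 kb and 1 Mb from 11 and farther from 5. Just outside the window were Rps3 at 106.7 kb and Rpl34 at 108.6 kb. Among the genes with a peak inside it, Rps13 was the farthest from its nearest peak, at 87.2 kb. The remaining genes in the first range were Rps20, Rpl32 and Rpl35. In the middle range were Rpl19, Rpl30, Rps23, Rps21, Rpl4, Rpl8, Rpl18, Rpl7, Rps16, Rpl3 and Rps15.

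Over 1 Mb from any peak were Rps2, Rps9, Rps18, Rpl37 and Rps19. Rps19, the gene most often mutated in Diamond-Blackfan anaemia, was the farthest of all, with no peak for 4035 kb on either side of its start on chromosome 7 at 25669655. Rps18 and Rps2 lie on chromosome 17 with 16 coding starts in each window, and their nearest peaks were 1755 and 1046 kb away. Genes over 1 Mb from a peak made 12.2% of the list and 15.1% of all protein-coding genes. The median distance to the nearest peak was 135.3 kb in the list and 262.1 kb over all genes.

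By subunit, 12 of 26 large-subunit genes (46.2%) and 4 of 15 small-subunit genes (26.7%) had a peak, with 16 and 9 peaks. Of the 9 small-subunit peaks, 6 belonged to Rps24. All 3 stalk genes, Rplp0, Rplp1 and Rplp2, had at least 1 peak, 5 together, and 9 of the other 23 large-subunit genes did. These counts were not tested against each other.

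The list does not cover the whole ribosome. Of 38 further cytosolic ribosomal protein genes 37 were matched, and 5 of these (13.5%) had a peak, below the 24.2% of all protein-coding genes, where the listed 41 were above it. Their windows held 7 peaks against 18.7 expected, a ratio of 0.375 (exact Poisson 95% interval 0.151 to 0.772). Rpl12 had 3, the nearest 5.57 kb from its start, and Rpl27a, Rps3a and Rps10 were among those with 1. Taken as 1 set of 78 genes, 21 cytosolic ribosomal protein genes (26.9%) had a peak, with 32 peaks against 39.8 expected (ratio 0.805, exact Poisson 95% interval 0.551 to 1.14). Whether a set of ribosomal protein genes stood above or below all genes thus depended on which of them were counted.

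**Figure D4:**
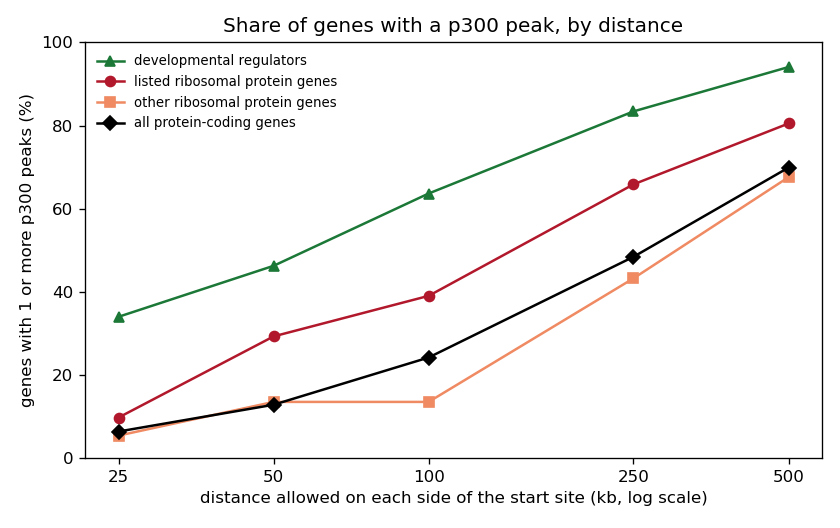
Share of genes with at least 1 p300 peak (vertical axis, %) within 25 to 500 kb of the start site (horizontal axis, log scale) for the 41 listed ribosomal protein genes, 37 other ribosomal protein genes, 253 developmental regulators and all 22367 protein-coding genes. At 100 kb the shares are 39.0, 13.5, 63.6 and 24.2%.

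Other housekeeping sets lay near the genome-wide share. A peak was present for 10 of 36 translation factors (27.8%), 11 of 41 other housekeeping genes such as proteasome and glycolysis genes (26.8%) and 22 of 76 mitochondrial ribosomal protein genes (28.9%). Their ratios to random placement were 0.643, 0.680 and 0.876, below the 1.18 of the listed 41, each with an exact Poisson 95% interval that includes 1. The difference between these sets and the list was not tested. In the last set Mrps2 and Mrps23 (2.63%) were called by the binomial test, where 0.747% of all protein-coding genes were. In the first pair of sets 0 genes were called. For the developmental regulators the share was 63.6%, the median 1 peak, and the ratio to random placement 3.17 (exact Poisson 95% interval 2.87 to 3.49). Of these regulators, 22 (8.70%) were called. These regulators include Nfib, Zfp608, Tle3 and Gse1, which the study singled out for their many p300 peaks in the same library, so the ratio is in part set by the choice of the list and is not independent evidence of a contrast. The 39 Hox genes, not used in patterning the forebrain, had 1 distinct peak against 3.32 expected, counted for 11 of them because their windows overlap.

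The share of listed genes with a peak also depended on the distance allowed. It was 9.76% at 25 kb, where 6.39% of all protein-coding genes had a peak, 29.3% against 12.8% at 50 kb, 65.9% against 48.4% at 250 kb and 80.5% against 69.9% at 500 kb. The ratio of peaks to random placement ran from 0.941 at 25 kb to 1.36 at 500 kb.

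Ribosomal protein genes lie in gene-rich sequence. The median number of protein-coding starts in a window, the gene's own included, was 6 for the list and 4 for all genes, and ran from 2 to 18 in the list. Across all protein-coding genes the share with a peak fell with gene density, from 32.2% with 1 or 2 starts in the window to 13.6% with 13 or more. Weighted to the densities of the 41 listed genes, the share over all protein-coding genes was 22.4%. In each of the classes of density drawn here the share was higher among the listed genes, on 4 to 17 of them a class, and this was not tested. The study filtered its peaks by the UCSC knownGene annotation, and GENCODE vM1 stands in for it here. The sequence where a peak could be kept is therefore approximate. It was taken as sequence outside exons and over 2.5 kb from any annotated start. Such sequence made up a median of 69.2% of the window in the list and 75.9% over all genes. With placement and peaks limited to such sequence, which 6331 of the 6629 peaks lie in, 21 peaks at 12 of the 41 genes stood against 15.3 expected, a ratio of 1.37 (exact Poisson 95% interval 0.850 to 2.10).

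**Figure D5:**
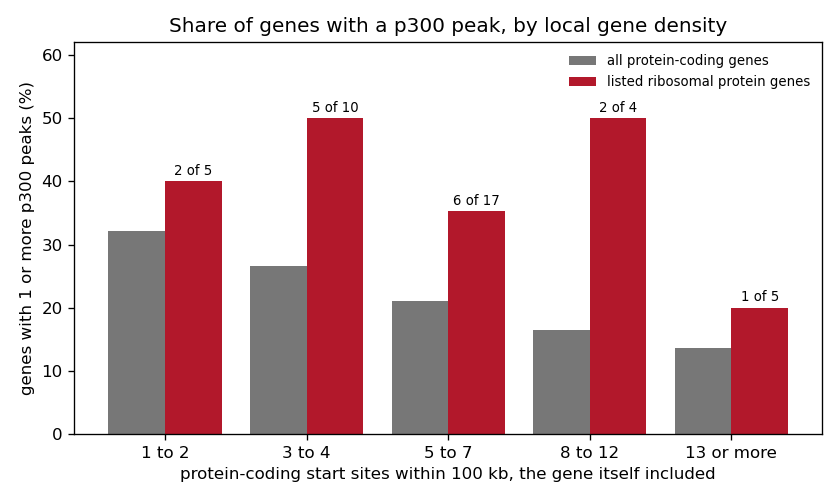
Share of genes with at least 1 p300 peak within 100 kb (vertical axis, %) by the number of protein-coding start sites within 100 kb (horizontal axis) for all protein-coding genes (grey) and the listed ribosomal protein genes (red, with the numbers of genes above the bars). Over all genes the share goes from 32.2% to 13.6%; the red bars rest on 4 to 17 genes each.

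The peaks near ribosomal protein genes were close to all peaks in median width and in the share inside coding genes, and their median GC content was higher. Their median width was 1004 bp, from 628 to 1904, where all peaks had a median of 1017 bp. Of the 25, 11 (44.0%) lay inside a protein-coding gene and 14 were intergenic, and 42.7% of all peaks lay inside a coding gene. Their GC content had a median of 50.5%, from 37.6 to 57.3%, and that of all peaks was 45.2%. Of all peaks, 55.7% lay within 100 kb of a coding start, where the 25 lie by the way they were chosen. The sets are therefore not alike in distance to genes, and likeness of setting cannot be judged from them. The widths, shares and GC contents were not tested, since the peaks share windows and neighbours.

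Assigned by regulatory domains after the study's rule, but without its curated ones and on the start sites used here, the result was different. Such a domain runs from 5 kb upstream to 1 kb downstream of a start and extends by up to 1 Mb to the neighbouring genes, and those of the list were short, with a median of 30.5 kb against 89.8 kb for all genes. By this rule 7 of the 41 genes (17.1%) held a peak and 21.3% of all protein-coding genes did, so that the list lay below all genes where it lay above them by distance. Rplp1 had 18 peaks (adjusted p = 1.08e-10, one-sided exact binomial test) and Rps24 had 15 (adjusted p = 1.53e-05, same exact test), and these 2 were called, where 1.14% of all protein-coding genes were. The Rplp1 domain covers the stretch shared with Tle3, which also had 18 peaks, and the Rps24 domain that shared with Zmiz1, which had 16. Rpl38, whose loss alters translation of Hox messages in mouse embryos, had 5 peaks in a domain of 471.2 kb (adjusted p = 0.363, exact test). Domains were tried after the counts by distance were seen.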

How the data were processed

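The authors aligned reads to mm9 with ELAND, keeping unique alignments, and found enriched intervals with MACS, listed by the submitters as version 1.4, using the input as control. Promoter peaks (up to 2.5 kb from a start) and exonic ones were filtered out by them, and so were peaks of uncertain alignment. The deposited list gives 6629 peaks as positions, with no score, so the depth behind a peak is unknown. The input library was not analysed here.

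Start sites came from GENCODE vM1 on NCBIM37, the assembly also called mm9. The expected number of peaks was each window's share of the 2.56 Gb of assembled bases. All 22367 protein-coding genes were tested for an excess with the exact binomial test (one-sided), and p-values were adjusted over all of them by Benjamini-Hochberg. Analysis used Python 3.11.15, numpy 2.4.6, scipy 1.17.1 and matplotlib 3.10.9.

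The genes and lists were chosen with earlier results of these data known. Full values are given for genes called, with 3 or more peaks, with a peak within 20 kb, or nearest to and farthest from a peak. Alternatives changed the window, the peaks used, the placement, the start sites and the genes counted.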

Additional observations from a re-analysis of the deposited data

How the results depend on the processing

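In 9 other ways of counting or placing peaks, the ratio of peaks to random placement was 1.12 to 1.37, inside its counting interval. Counting named genes only cannot change this ratio, and any overlap or the most upstream start left it at 1.18. Outside these 9 it was lower, at 0.941 with windows of 25 kb, 0.917 without Rps24 and 0.792 without Rps24 and Rplp1. The number of ribosomal protein genes with a peak went from 16 to 27 with windows of 250 kb, to 6 when the narrower peaks were dropped (3324 left), and to 7 with regulatory domains, which were added after the data were seen. Over all protein-coding genes the share with a peak became 48.4%, 12.9% and 21.3% in these settings, and the list lay below it, at 17.1%, with regulatory domains. Rps24 was the 1 gene of the list called in all of the 9 but windows of 50 kb, where it had 2 peaks and 0 of the 41 were called (adjusted p = 0.890 for Rps24, exact binomial test). With regulatory domains 2 were called. The adjusted p of Rps24 was 0.00352 to 0.0159 in the others (same exact test). Over all protein-coding genes, 167 were called with windows of 100 kb, 78 with 50 kb, 456 with 250 kb, 98 with wide peaks alone and 24 with peaks under 5 kb apart joined. No library could be left out and no paired analysis was possible because there was 1 library of each kind.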

Other observations

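The peaks near ribosomal protein genes lay more often downstream of the start than upstream, 18 against 7 (72.0% downstream, compared with 51.0% over all pairs of a protein-coding gene and a peak within 100 kb). Without Rps24 and Rplp1 the numbers were 9 downstream of 16. Peaks between 30 and 40 kb downstream were found at 7 of the genes, namely Rpl14, Rps7, Rpl27, Rpl13, Rpl6, Rpl38 and Rplp1, with distances from 31.7 to 36.5 kb. That is 28.0% of the 25 peaks, where 5.17% of all 8685 pairs lie in this range. The range was picked after the positions were seen, and the pattern was not tested.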
